A study of Mus musculus with 6 samples.

Results

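Endothelial lipase (Lipg), the intracellular lipases and the genes of the lipid droplet were followed in tumor-associated macrophages (TAMs) with and without a myeloid deletion of PD-1. The 10 genes were Lipg, Lipe, Pnpla2, Pnpla7, Pnpla8, Mgll, Abhd5, Plin2, Hilpda and Dgat1, taken by symbol from the 55421 genes of the count table. Of these, 9 were among the 14469 genes tested, and Mgll was below the expression filter. The genes were selected on their role in lipolysis and droplets and on the log2 fold change between the genotypes in these same libraries, above all that of Lipg, so their changes are given as a description with standard errors and no p-value, and the counts of calls among them support nothing.

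TAMs came from subcutaneous M17 fibrosarcomas, named MC17-51 in the methods, and were collected on day 15. The libraries are labelled Pdcd1f/f or Pdcd1f/fLysMcre, with 3 libraries for each genotype. Both genotypes carry loxP-flanked Pdcd1 alleles, and Cre expressed from the lysozyme gene was present only in Pdcd1f/fLysMcre mice. LysM-driven Cre acts in macrophages, monocytes and neutrophils, so other myeloid cells of these hosts were also targeted. Cells were sorted as live CD45+CD11b+F4/80+Ly6G- cells. The mice were young adults per the methods, and their age is not in the labels. No source used here says whether a library is from 1 mouse or a pool, so the p-values below measure the spread between these libraries.

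Triglyceride is stored in lipid droplets and is taken apart in steps. Adipose triglyceride lipase (Pnpla2), with its coactivator Abhd5, releases a fatty acid from triglyceride, hormone-sensitive lipase (Lipe) acts on diacylglycerol and cholesteryl esters, and monoacylglycerol lipase (Mgll) acts on the remaining monoacylglycerol. Hilpda inhibits Pnpla2, Plin2 coats the droplet surface in cells other than adipocytes, and Dgat1 makes triglyceride from diacylglycerol. Lipg is a secreted lipase that acts mainly on phospholipids of high-density lipoprotein and was named for endothelial cells, which are among the cells that make it. Macrophages that take up lipid store it in droplets and are then called foam cells.

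The start sites of 8 of the 10 genes were matched to RefSeq windows of the GRCm38.p6 build, each with 250 bases before and 50 bases after a start site, which gave 11 windows. Lipg and Dgat1 were not searched. ACGTG, the A form of the (A/G)CGTG core of hypoxia-inducible factors, was searched on both strands and overlaps the E-box CACGTG. The G form, GCGTG, was not searched or marked, so a window without a match can still hold it. ACGTG was found in 6 windows of 5 genes (Plin2, Pnpla7, Hilpda, Lipe and Mgll), and in 19.6% of the 32851 windows of all genes. CACGTG itself was found in 4 windows of 4 genes (Plin2, Pnpla7, Lipe and Mgll), and in 7.15% of all windows. The windows of Plin2 and Pnpla7 are shown as examples with CACGTG near the start, and that of Pnpla2, the main triglyceride lipase, as an example without a match. Hilpda has a match at position -43 of its second window, which runs through its other start site and is not printed. No relation between a match and a change was tested. The sequences are credited to RefSeq and run 5′ to 3′ on the gene's strand from 250 bases before to 30 bases after the start, with matches to ACGTG on either strand in capitals.
Plin2 chr4:86670030-86670309 (minus strand): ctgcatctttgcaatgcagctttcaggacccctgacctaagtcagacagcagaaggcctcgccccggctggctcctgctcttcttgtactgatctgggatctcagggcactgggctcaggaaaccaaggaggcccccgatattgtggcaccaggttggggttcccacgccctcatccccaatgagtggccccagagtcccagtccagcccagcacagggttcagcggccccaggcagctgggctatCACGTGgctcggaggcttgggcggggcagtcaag
Pnpla7 chr2:24975783-24976062 (plus strand): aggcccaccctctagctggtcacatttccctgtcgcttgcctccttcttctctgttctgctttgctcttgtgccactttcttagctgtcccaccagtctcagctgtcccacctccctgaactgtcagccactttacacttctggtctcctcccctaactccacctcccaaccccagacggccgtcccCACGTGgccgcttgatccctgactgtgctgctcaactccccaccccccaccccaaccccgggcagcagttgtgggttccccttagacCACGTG
Pnpla2 chr7:141454938-141455217 (plus strand): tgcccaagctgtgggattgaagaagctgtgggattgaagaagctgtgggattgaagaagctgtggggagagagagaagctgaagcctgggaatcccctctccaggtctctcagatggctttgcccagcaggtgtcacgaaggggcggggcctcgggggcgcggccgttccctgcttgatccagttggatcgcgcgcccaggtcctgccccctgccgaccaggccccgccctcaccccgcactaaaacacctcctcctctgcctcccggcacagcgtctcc
In Plin2 the match lies across the start site. Pnpla7 has a match before the start and another after it. A match is a string of letters and does not show binding. The PPAR half-site AGGTCA was found in 2 windows (Plin2 and Abhd5) and in 16.3% of all windows, and the GC box GGGCGG in 9 windows and in 35.7% of all.

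Library totals ranged from 41833823 to 51417209 counts, and 3 counts correspond to 0.0583 to 0.0717 CPM (counts scaled to a common library total), which covers counting error only. Lyz2, from which Cre is expressed, was lower in Pdcd1f/fLysMcre TAMs (log2 fold change -8.99), the direction that a Cre inserted there would give. Its means were 216864 ± 8638 normalized counts in Pdcd1f/f and 427 ± 33.4 in Pdcd1f/fLysMcre libraries (SD, n = 3). The loss of Lyz2 RNA, the presence of Cre and the deletion of Pdcd1 therefore cannot be told apart for any gene below. Pdcd1 itself had 7 to 16 counts in each library and a log2 fold change of -0.25 (SE 0.45), so the deletion could not be measured at this depth, and featureCounts sums reads over all exons including those that were not deleted. Xist and 4 Y-linked transcripts also separated the genotypes, with Y-linked sums of 1545 to 1914 in Pdcd1f/f and 6267 to 7233 in Pdcd1f/fLysMcre libraries, so the share of male cells and the genotype cannot be told apart. Every library held both, with Xist at 8530 normalized counts or more, so RNA of both sexes was present in each. Whether this comes from pooled mice was not tested. Pdcd1f/f replicate 1 and Pdcd1f/fLysMcre replicate 2 stood apart from the other libraries of their genotype along GC content, and the log2 fold changes without them are given for the genes of the set.

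Lipg had the log2 fold change furthest from 0 among the 9 genes tested. The Pdcd1f/f libraries held 2163, 2323 and 2463 normalized counts of it in replicates 1, 2 and 3, and the Pdcd1f/fLysMcre libraries 712, 855 and 709. The genotypes did not overlap, and the lowest Pdcd1f/f library was well above the highest Pdcd1f/fLysMcre library. The means were 2316 ± 150 and 759 ± 83.7 normalized counts (SD, n = 3), and the log2 fold change was -1.61 (SE 0.09), or 3.05-fold lower. With each library left out in turn it lay between -1.70 and -1.56, and without both libraries that stood apart it was -1.76. Lipg (ENSMUSG00000053846) lies on the minus strand of GRCm38 chr18:74939322-74961263. In bulk RNA, fewer cells that express a gene and less of its RNA per cell cannot be told apart.

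**Figure D1:**
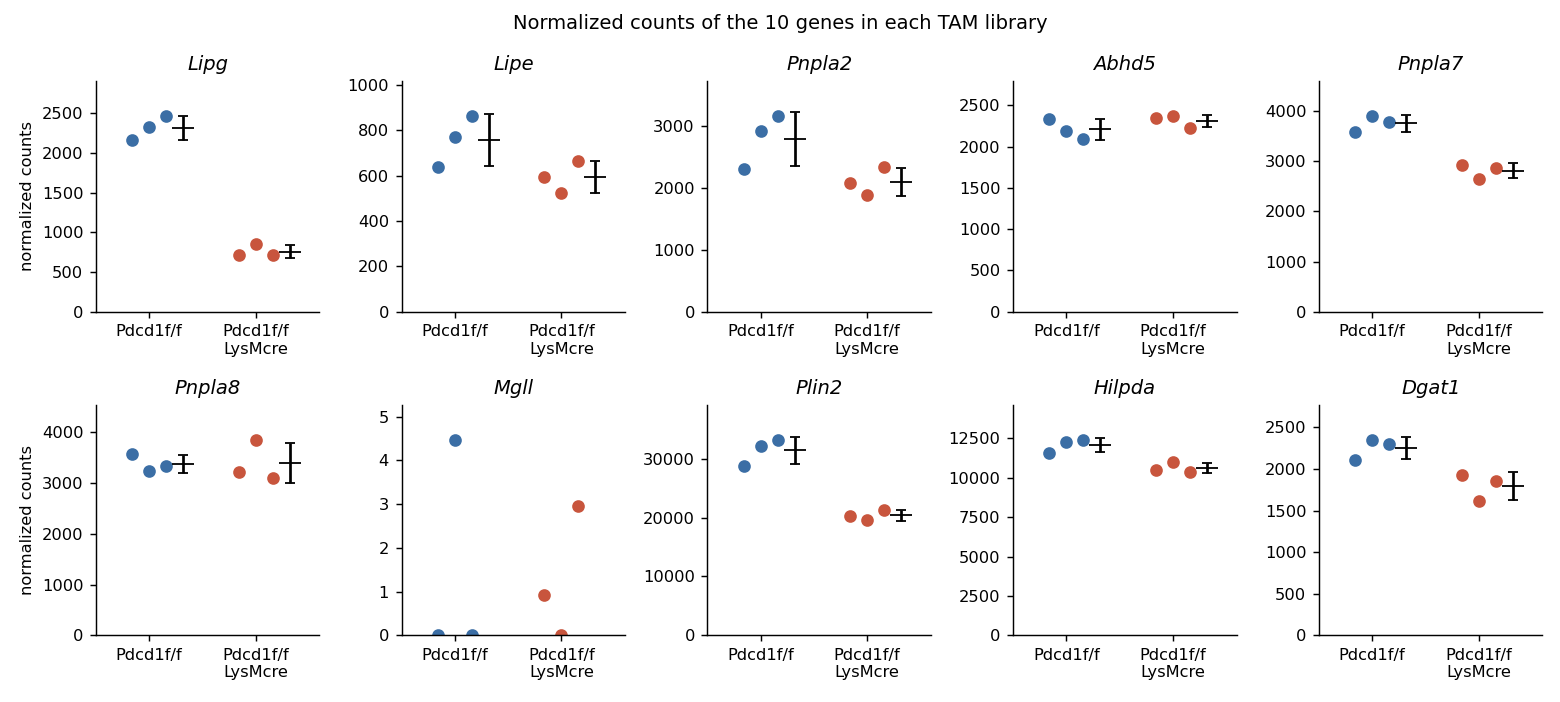
Normalized counts (vertical axis from 0, one scale per panel) of the 10 genes in each of 3 Pdcd1f/f (blue) and 3 Pdcd1f/fLysMcre (red) TAM libraries, with the mean and SD beside the points except for Mgll, which had at most 4 raw counts in a library. The Lipg points of Pdcd1f/fLysMcre TAMs sit between 709 and 855, all below the Pdcd1f/f points of 2163 to 2463, and the points of Pnpla7, Plin2, Hilpda and Dgat1 also do not overlap.

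The triglyceride lipases were lower by less, and their libraries overlapped. Pnpla2 had 2308, 2918 and 3161 normalized counts in the control libraries, in the same order, and 2078, 1879 and 2332 in the Pdcd1f/fLysMcre libraries. The lowest Pdcd1f/f library, replicate 1, fell inside the range of the other genotype. Means were 2796 ± 439 and 2096 ± 227 (SD, n = 3), and the log2 fold change was -0.41 (SE 0.12), or -0.47 without both libraries that stood apart. After offsets for GC content and length it was -0.27 (SE 0.06). Pnpla2 (ENSMUSG00000025509) lies on the plus strand of chr7:141455198-141460743.

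Lipe, the hormone-sensitive lipase, was the least abundant of the genes tested. It had 638, 772 and 862 normalized counts in Pdcd1f/f and 594, 522 and 666 in Pdcd1f/fLysMcre replicates. Again Pdcd1f/f replicate 1 overlapped the other genotype. The log2 fold change was -0.35 (SE 0.13), from means of 757 ± 113 and 594 ± 71.9 (SD, n = 3), and -0.38 without both libraries that stood apart. After offsets for GC content and length it was -0.22 (SE 0.08). Lipe (ENSMUSG00000003123) lies on the minus strand of chr7:25379527-25398710, and 918 of its 5886 exonic bases overlap an antisense gene, 4732471J01Rik, which matters only if reads were counted without strand.

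Mgll, which removes the last fatty acid, was near the limit of detection. Its raw counts were 0, 4 and 0 in Pdcd1f/f and 1, 0 and 3 in Pdcd1f/fLysMcre replicates, so no fold was computed. The gene (ENSMUSG00000033174) lies on the plus strand of chr6:88724412-88828360.

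Abhd5, the coactivator of Pnpla2, was not lower, and its difference from Pnpla2 was not tested. It had 2341, 2192 and 2096 normalized counts in Pdcd1f/f and 2343, 2370 and 2227 in Pdcd1f/fLysMcre replicates, and the genotypes overlapped. The means were 2210 ± 123 and 2313 ± 75.7 (SD, n = 3), and the log2 fold change was 0.07 (SE 0.07). Leaving out each library in turn gave 0.03 to 0.10, and leaving out both that stood apart gave 0.09. Abhd5 (ENSMUSG00000032540) lies on the plus strand of chr9:122351608-122381524, and 950 of its 5956 exonic bases overlap the antisense gene A730085K08Rik.

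The patatin-domain phospholipases Pnpla7 and Pnpla8 had different log2 fold changes, and the difference between them was not tested. After offsets for GC content and length, their log2 fold changes were -0.33 and -0.12. Pnpla7, a lysophospholipase, had 3578, 3896 and 3784 normalized counts in Pdcd1f/f and 2930, 2643 and 2861 in Pdcd1f/fLysMcre replicates, without overlap. The means were 3753 ± 161 and 2811 ± 150 (SD, n = 3), and the log2 fold change was -0.41 (SE 0.07). This equals the change of Pnpla2 to the second decimal, but with a smaller error, and it was -0.41 also without both libraries that stood apart. Pnpla7 (ENSMUSG00000036833) lies on the plus strand of chr2:24976033-25054057.

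Pnpla8, a calcium-independent phospholipase A2, had 3565, 3224 and 3322 normalized counts in Pdcd1f/f and 3214, 3840 and 3100 in Pdcd1f/fLysMcre replicates. The ranges overlapped almost fully, and the highest value was that of Pdcd1f/fLysMcre replicate 2. The log2 fold change was 0.01 (SE 0.09), from means of 3370 ± 175 and 3385 ± 398 (SD, n = 3), and its sign turned with the library left out (-0.09 to 0.06; -0.06 without both that stood apart). Pnpla8 (ENSMUSG00000036257) lies on the plus strand of chr12:44221370-44322532.

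Among the droplet genes, Plin2 had the largest difference. Its normalized counts were 28801, 32194 and 33164 in Pdcd1f/f and 20199, 19571 and 21277 in Pdcd1f/fLysMcre replicates. All 3 Pdcd1f/fLysMcre libraries were below all 3 controls. The means were 31386 ± 2291 and 20349 ± 863 (SD, n = 3), and the log2 fold change was -0.62 (SE 0.07), which is 1.54-fold lower. The range with each library left out was -0.69 to -0.58, and without both that stood apart the value was -0.66. Plin2 (ENSMUSG00000028494) lies on the minus strand of chr4:86648386-86670060.

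Hilpda, the inhibitor of Pnpla2, was lower by a smaller margin. Its normalized counts were 11584, 12278 and 12397 in Pdcd1f/f and 10518, 10981 and 10334 in Pdcd1f/fLysMcre replicates, without overlap. The means were 12086 ± 439 and 10611 ± 333 (SD, n = 3), and the log2 fold change was -0.19 (SE 0.06). Without both libraries that stood apart it was -0.25. Hilpda (ENSMUSG00000043421) lies on the plus strand of chr6:29272488-29275446.

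Dgat1, which makes triglyceride, had 2105, 2350 and 2305 normalized counts in Pdcd1f/f and 1924, 1611 and 1853 in Pdcd1f/fLysMcre replicates. The genotypes did not overlap. The log2 fold change was -0.32 (SE 0.08), from means of 2253 ± 130 and 1796 ± 164 (SD, n = 3), and -0.30 without both libraries that stood apart. After offsets for GC content and length it was -0.19 (SE 0.05). Dgat1 (ENSMUSG00000022555) lies on the minus strand of chr15:76502015-76511953.

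**Figure D2:**
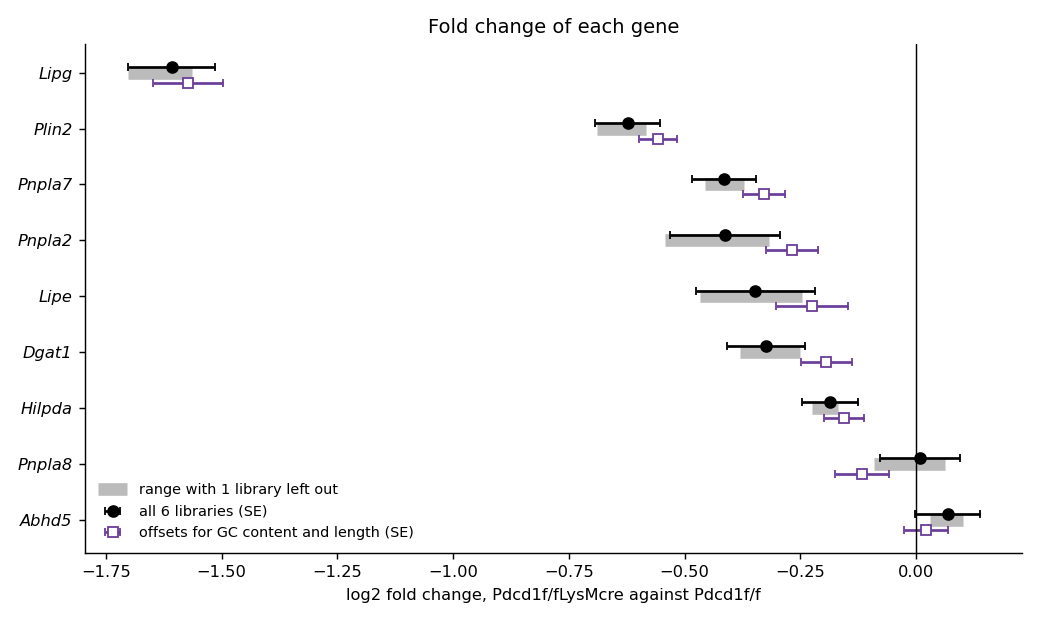
Log2 fold change of Pdcd1f/fLysMcre against Pdcd1f/f TAMs (horizontal axis) for the 9 genes tested, from all 6 libraries (black, SE), with 1 library left out in turn (gray range) and after offsets for GC and length (purple, SE). Lipg lies at -1.61, apart from the next gene, Plin2, at -0.62, and Pnpla8 and Abhd5 lie at 0.01 and 0.07.

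In all, 7 of the 9 tested genes had a negative log2 fold change, and their median was -0.35, against -0.003 over all genes tested. At an adjusted p under 0.05 in edgeR's quasi-likelihood test, 3 of the 9 (Lipg, Plin2 and Pnpla7) were called, all lower, and 3.01% of all genes tested were called lower (5.43% in either direction). In 5 of the 10 genes (Lipg, Pnpla7, Plin2, Hilpda and Dgat1) the Pdcd1f/fLysMcre libraries lay below the Pdcd1f/f libraries without overlap, as in 13.1% of all genes tested. Both counts rest on the contrast used in choosing the genes, and nothing is read from them. Without Pdcd1f/f replicate 1, 7 of the genes and 21.6% of all genes were called, and without both libraries that stood apart 7 and 26.2% were. Without Pdcd1f/f replicate 2, 2 of the genes and 1.51% of all genes were called, with Pnpla7 no longer among them. A wider filter (at least 1 count in any library) called 6 of the genes and 7.32% of all, DESeq2 called 6 and 12.8%, DESeq2 with Storey q-values 7 and 13.5%, the replicate block 5 and 7.1%, offsets for GC and length 6 and 19%, and both together 7 and 19.5%.

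Levels can be compared between genes only per length, here the joined exons of all annotated transcripts of a gene. This length can exceed that of a single mRNA (14174 bases for Pnpla8), which lowers the value per kilobase. The order between genes is therefore approximate. In Pdcd1f/f TAMs, Hilpda had 10958 ± 398 and Plin2 8937 ± 652 normalized counts per kilobase of exon (SD, n = 3), above all other genes of the set. They were followed by Pnpla2 (926 ± 145), Dgat1 (737 ± 42.6), Pnpla7 (501 ± 21.5), Lipg (491 ± 31.9), Abhd5 (371 ± 20.7), Pnpla8 (238 ± 12.4) and Lipe (129 ± 19.1). The libraries of Pnpla2 and Dgat1 overlapped, as did those of Pnpla7 and Lipg, and no other neighbours in this order did. In Pdcd1f/fLysMcre TAMs, Lipg moved from place 6 to place 8 with 161 ± 17.8 normalized counts per kilobase, below Pnpla8 (239 ± 28.1) and above Lipe (101 ± 12.2). The droplet genes kept the top of the order, with Hilpda at 9620 ± 302 and Plin2 at 5794 ± 246 normalized counts per kilobase.

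**Figure D3:**
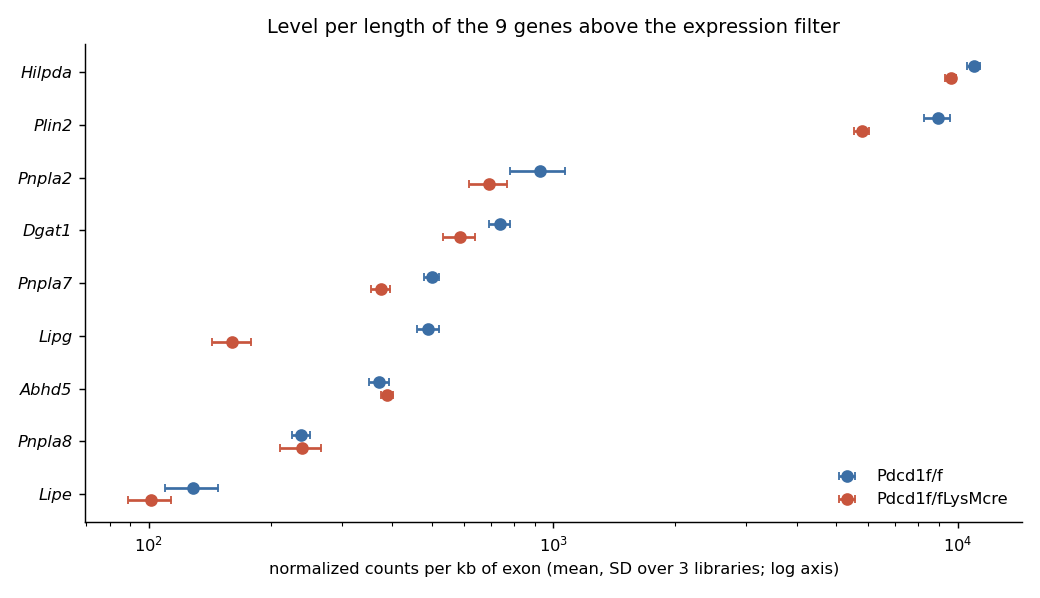
Normalized counts per kilobase of exon (log axis; mean and SD over 3 libraries) of the 9 genes above the expression filter in Pdcd1f/f (blue) and Pdcd1f/fLysMcre (red) TAMs. Hilpda and Plin2 lie above the lipases in both genotypes, and Lipg goes from 491 to 161.

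The libraries of a genotype differed along GC content, and the genes of the set did so with them. Across genes, the Spearman correlation of a library's deviation with GC content was -0.58 in Pdcd1f/f replicate 1 and -0.49 in Pdcd1f/fLysMcre replicate 2, against 0.12 to 0.51 in the other 4 libraries. Pdcd1f/f replicate 1 was the lowest library of its genotype for 7 of the 9 genes and the highest for the other two, Pnpla8 and Abhd5, whose longest transcripts have the lowest GC contents of the set (39.1% and 45.7%). Pdcd1f/fLysMcre replicate 2 was the lowest of its genotype for the 5 genes with the highest GC contents (Pnpla2, Dgat1, Lipe, Pnpla7 and Plin2) and the highest for the other four. After offsets for GC and length were added, Lipg (-1.57, SE 0.08) and Plin2 (-0.56, SE 0.04) moved little. Pnpla7 moved to -0.33 (SE 0.05), Pnpla2 to -0.27 (SE 0.06), Lipe to -0.22 (SE 0.08) and Dgat1 to -0.19 (SE 0.05). Pnpla8 moved to -0.12 (SE 0.06).

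**Figure D4:**
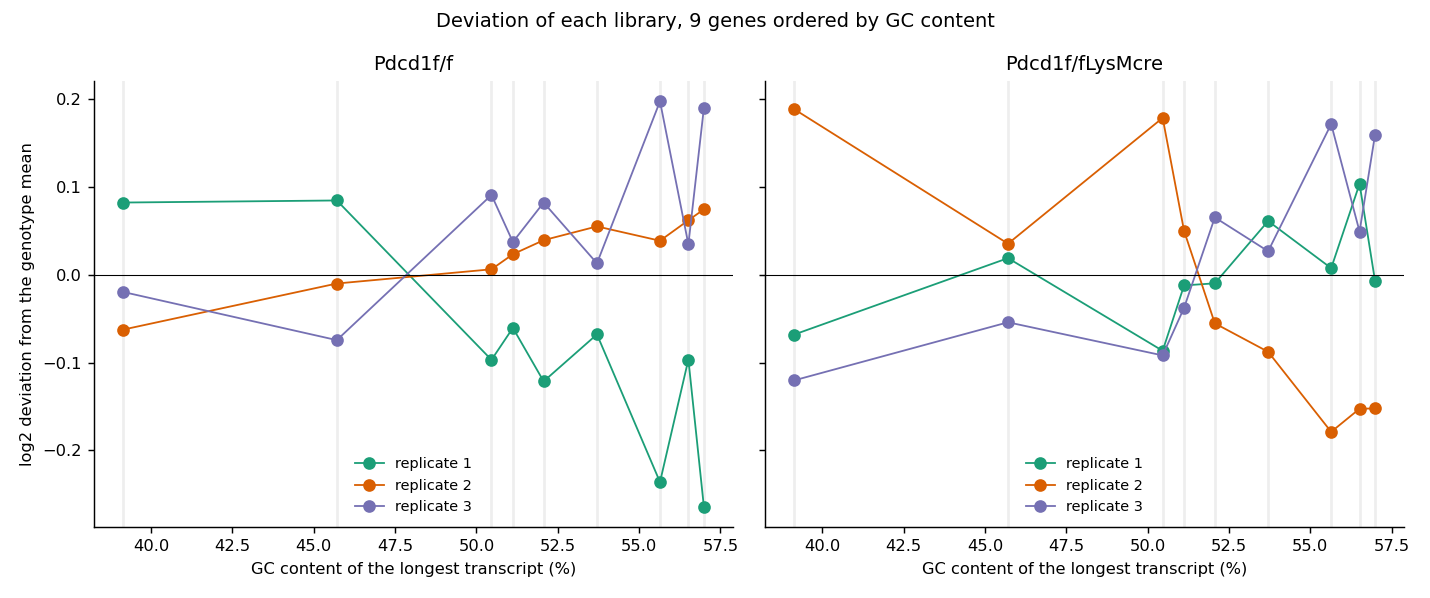
Log2 deviation of each library from its genotype mean (vertical axis) for the 9 tested genes, placed by the GC content of their longest transcript (horizontal axis, %), with Pdcd1f/f libraries on the left and Pdcd1f/fLysMcre libraries on the right. The lines of Pdcd1f/f replicate 1 and Pdcd1f/fLysMcre replicate 2 run downward with GC content, from the left end at Pnpla8 (39.1%) to the right end at Pnpla2 (57.0%).

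Earlier results of these data were known when the rest of the pathway was listed, so no enrichment is read from its counts of calls. It was read from 78 other genes of lipolysis, the droplet and glycerolipid synthesis, listed by function. Of these, 77 were matched and 58 were tested. By edgeR's quasi-likelihood test, adjusted over all genes tested, 7 fell (3.01% of all genes tested did) and 4 rose (2.42% of all did). The median log2 fold change of the 58 was -0.05. Of the 11 called genes, 7 are in term lists that the study drew from these same libraries, which is not independent evidence of their direction. The count moved with single libraries. It was 25 without Pdcd1f/f replicate 1 (21.6% of all genes were called in that fit), and 26 without both libraries that stood apart (26.2%). Only Ddhd1 and Lpin1 were called without Pdcd1f/f replicate 2 or without Pdcd1f/fLysMcre replicate 1 (1.51% of all genes in each fit). In the fits without replicate 3 of Pdcd1f/f or of Pdcd1f/fLysMcre, 5 genes were called (2.38% and 3.56% of all genes). No call of the 11 was lost without Pdcd1f/f replicate 1.

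Among lipases that act outside the cell or in lysosomes, and their cofactors, 10 of 13 genes were tested and 2 fell (3.01% of all genes tested did). Angptl4, a secreted inhibitor of lipoprotein lipase, went from 186 ± 20.3 to 101 ± 11.2 normalized counts (SD, n = 3; log2 fold change -0.88, SE 0.15, edgeR adjusted p = 0.00912). Pla2g15, a lysosomal phospholipase A2, went from 4881 ± 676 to 3504 ± 229 (log2 fold change -0.48, SE 0.10, edgeR adjusted p = 0.0219). Angptl4 was called in 4 and Pla2g15 in 2 of the 6 fits with a library left out. Lpl, lipoprotein lipase, is of the same family as Lipg and was named for that, outside the rule for named genes. It had 21439, 19185 and 18918 normalized counts in Pdcd1f/f and 21429, 23781 and 21157 in Pdcd1f/fLysMcre replicates. These overlapped, with a log2 fold change of 0.16 (SE 0.07, edgeR adjusted p = 0.213), so Lipg and Lpl lay on opposite sides of 0. The difference between Lipg and Lpl was not tested.

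Among other intracellular lipases and hydrolases, 10 of 16 genes were tested and 2 fell (3.01% of all genes tested did). Ddhd1, a phospholipase A1, went from 1992 ± 197 to 1340 ± 86.4 normalized counts (SD, n = 3; log2 fold change -0.57, SE 0.09, edgeR adjusted p = 0.00511) and was called with every library left out in turn. Abhd4, a hydrolase related to Abhd5 that acts on N-acyl phospholipids, went from 1855 ± 111 to 1438 ± 70.4 (log2 fold change -0.37, SE 0.08, edgeR adjusted p = 0.0215), and was called in 1 of the 6 fits with a library left out. Of the 14076 exonic bases of Ddhd1, 718 overlap the antisense gene Gm15601 and 93 the miRNA gene Mir5131 on the same strand.

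All 10 regulators of lipolysis were tested and 2 fell (3.01% of all genes tested did). Fabp4, a fatty acid binding protein of adipocytes and macrophages, went from 565 ± 78.2 to 351 ± 55.3 normalized counts (SD, n = 3; log2 fold change -0.69, SE 0.14, edgeR adjusted p = 0.0202), and was called in 3 of the 6 fits with a library left out.

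Among other droplet coat and biogenesis genes, 9 of 18 were tested and none passed edgeR's adjusted threshold. At an unadjusted p under 0.05, edgeR gave 5 of the 9 (24.2% of all genes tested were past it). DESeq2 with Benjamini-Hochberg adjustment called 1 (12.8% of all genes in that fit). Their median log2 fold change was -0.22. Plin1, Plin4, Cidea and Cidec, which mark droplets of adipocytes, had at most 1 count in any library. Plin3, the other perilipin of most cells, was named for its relation to Plin2 and had 2855 ± 314 and 2688 ± 109 normalized counts (SD, n = 3), with a log2 fold change of -0.08 (SE 0.08, edgeR adjusted p = 0.574).

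Of the glycerolipid and sterol ester synthesis genes, 4 rose (2.42% of all genes tested did) and 1 fell (3.01% did). Acsl1, which activates fatty acids to acyl-CoA, went from 5975 ± 142 to 7511 ± 73.1 normalized counts (SD, n = 3; log2 fold change 0.33, SE 0.06, edgeR adjusted p = 0.00801). Gpat3, which adds the opening acyl chain to glycerol 3-phosphate, went from 749 ± 36.6 to 960 ± 49.3 (log2 fold change 0.36, SE 0.08, edgeR adjusted p = 0.0329), and 1052 of its 3502 exonic bases overlap an antisense gene. Agpat4, an acyltransferase of the next step, went from 2795 ± 211 to 3541 ± 258 (log2 fold change 0.34, SE 0.08, edgeR adjusted p = 0.0356). Pcyt1a, the regulated enzyme of phosphatidylcholine synthesis, went from 7020 ± 181 to 8281 ± 138 (log2 fold change 0.24, SE 0.06, edgeR adjusted p = 0.0368). Parts of the exons of Acsl1 and Pcyt1a also overlap genes on the opposite strand. Gpat3 and Pcyt1a were each called in 1, Agpat4 in 2 and Acsl1 in 4 of the 6 fits with a library left out. Lpin1, a phosphatidate phosphatase that makes diacylglycerol, fell from 751 ± 11.4 to 429 ± 60.1 (log2 fold change -0.81, SE 0.11, edgeR adjusted p = 0.00239) and was called in all 6. Of this list 19 of 21 genes were tested, with a median of 0.03. Dgat2, which carries out the same reaction as Dgat1 and was named for that, had 673 ± 82.6 and 648 ± 48.1 normalized counts (log2 fold change -0.05, SE 0.11, edgeR adjusted p = 0.808).

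**Figure D5:**
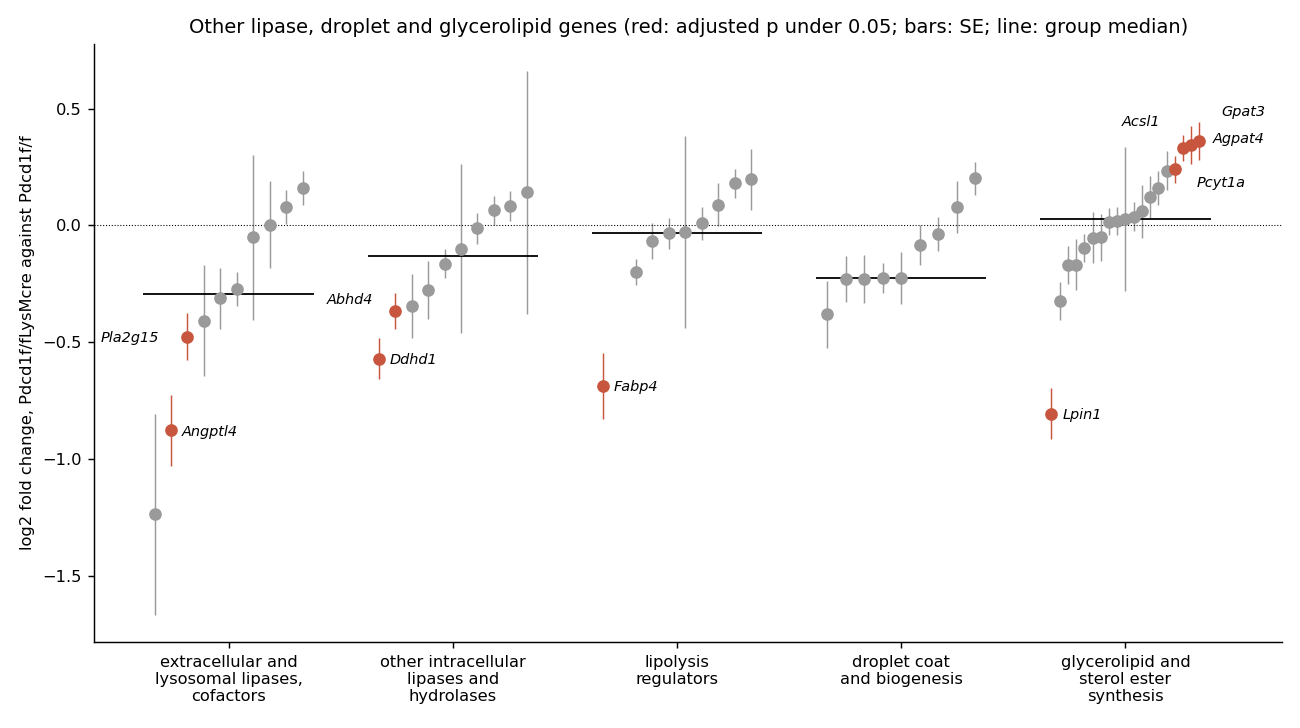
Log2 fold change of Pdcd1f/fLysMcre against Pdcd1f/f TAMs (vertical axis, SE) for tested genes of 5 functional lists (horizontal axis), with the median of each list as a line and 1 gene not drawn. Genes past the threshold are red and named, the lowest being Angptl4 at -0.88, and the 4 above 0 are Gpat3, Agpat4, Acsl1 and Pcyt1a.

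The labelled cell type was checked on its markers, which were also listed with earlier results of these data known. All 8 macrophage genes were tested and summed to 261827 to 279775 normalized counts in Pdcd1f/f and 248214 to 250902 in Pdcd1f/fLysMcre libraries. Of these, 3 fell by edgeR's test, namely Adgre1, which encodes the F4/80 antigen of the gate, Csf1r and Mertk, against 3.01% of all genes tested called lower, and they were called in 4, 2 and 6 of the 6 fits with a library left out. Mertk, a receptor for apoptotic cells, went from 5950 ± 186 to 3890 ± 103 normalized counts (SD, n = 3), and its log2 fold change was -0.61. Mertk moved in the direction of Plin2 and Lipg, and its part in their difference was not tested. The other 5 were not called, with log2 fold changes of -0.21 for Fcgr1, -0.16 for Itgam, -0.06 for Cd68, 0.11 for Ptprc and 0.15 for Cd14. Without overlap between the genotypes, 4 of the 8 markers were lower in Pdcd1f/fLysMcre libraries (the 3 called and Fcgr1; 13.1% of all genes tested) and 1, Cd14, was higher (14.1% of all).

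Because Lipg is also made by endothelial cells and lipid droplets are prominent in adipocytes, markers of both were summed. Of 8 adipocyte genes, Lep, Cfd and Cidec had no count in any library, and the list without Pparg, which macrophages also express, summed to 3.29 to 13.4 normalized counts in Pdcd1f/f and 2.86 to 5.90 in Pdcd1f/fLysMcre libraries. Of 8 endothelial genes, 5 were tested and Pecam1, which leukocytes also express, fell (log2 fold change -0.62, SE 0.09, edgeR adjusted p = 0.0034). The other 7 endothelial genes summed to 943 to 982 and 929 to 987 normalized counts in the 2 genotypes, which overlapped. Fibroblast genes summed to 3080 to 3338 and 2939 to 3237, with 1 of 6 tested genes lower (Col1a2). Of all genes tested, 3.01% were called lower by edgeR. Neutrophil genes (1736 to 2230 against 2147 to 2310), T and NK cell genes (69.3 to 91.8 against 69.8 to 79.6), B cell genes (169 to 209 against 120 to 149) and dendritic cell genes (221 to 302 against 285 to 361) had no gene called by edgeR. At an unadjusted p under 0.05 these were 1 of 4, 0 of 2, 1 of 1 and 2 of 3 tested genes, too few to set against the 24.2% of all genes. DESeq2 called 1, of the B cell list (12.8% of all genes in that fit).

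The genes whose pattern over the 6 libraries was most like that of Lipg were found from centred log2 normalized counts. The closest was Gdf3, a growth factor of the TGF-beta family, with a root mean square difference of 0.069 on the log2 scale. It was followed by Saa3, an acute-phase serum amyloid (0.092), Oplah, 5-oxoprolinase (0.10), Cpne8, a copine (0.11), and Gm47204 (0.15). Their log2 fold changes lay between -1.61 and -1.45, near the -1.61 of Lipg, which the measure of likeness requires.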

How the data were processed

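RNA-seq of 6 TAM libraries was analysed. Per the labels and methods, polyA RNA was made into stranded libraries and read as paired ends, and the submitters' processing notes name FastQC 0.11.5, cutadapt 2.5, STAR 2.7.3a, featureCounts of Subread 1.6.2 and DESeq2 1.24.0 on GRCm38. The strand setting and the handling of multi-mapped reads are not given in the sources used here. The authors deposited a table of raw counts for Ensembl genes and a normalized signal table of 16552 genes, which is the counts divided by 1 size factor per library. Normalized counts in the text are these values, and for genes absent from that table the same division was applied.

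The test of genotype used edgeR 4.0.16 on the counts, in R 4.3.3 (filterByExpr with a minimum count of 10 and minimum total of 15, TMM, robust glmQLFit, two-sided glmQLFTest, Benjamini-Hochberg adjustment over 14469 genes, threshold 0.05). SE is the size of the log2 fold change over the root of F. The common biological coefficient of variation was 8.92%. Alternatives were RLE size factors, library size alone, other filters, DESeq2 1.42.0, limma-trend 3.58.1 on log2(value + 1), the replicate block, loess offsets for GC content and length, and each library left out. Scripts were tested on simulated data. Positions, exon lengths and GC content came from GENCODE M21 on GRCm38, and promoters from RefSeq. Of 78 pathway symbols, 1 was matched by a RefSeq synonym and 1 was unmatched.

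The 10 genes, the pathway lists and the marker lists (macrophage, neutrophil, adipocyte, endothelial, fibroblast, T and NK, B and dendritic cell) were chosen with earlier results of these data known. Named pathway genes are those past the threshold, except 1 that is counted but not reported here, and the 5 genes most like Lipg had the smallest root mean square difference. Lpl, Plin3 and Dgat2 were added as relatives of Lipg, Plin2 and Dgat1.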

Additional observations from a re-analysis of the deposited data

How the results depend on the processing

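Over the 18 alternatives the log2 fold change lay between -1.76 and -1.56 for Lipg, -0.69 and -0.56 for Plin2, and -0.46 and -0.33 for Pnpla7, and that of Pnpla8 had the sign of its main value in 10. None of the 11 called pathway genes changed direction. The 786 genes past the threshold became 1951 with all genes of at least 1 count, 1599 with DESeq2 and Benjamini-Hochberg adjustment, 1950 with DESeq2 and Storey q-values, 2743 with offsets for GC and length, 2825 with offsets and the replicate block, 222 to 3181 with a library left out, and 3757 without both libraries that stood apart, an alternative chosen after seeing the data. In the same order of settings, the 3 called of the 10 genes became 6, 6, 7, 6, 7, 2 to 7, and 7. The 11 pathway genes became 19 with at least 1 count, 20 with offsets, 21 with offsets and the replicate block, 2 to 25 with a library left out, and 26 without both libraries. The cause of these moves was not tested. Among log2 fold changes, that of Lipg moved to -1.76 and that of Hilpda to -0.25 without both libraries, and those of Pnpla7 and Dgat1 to -0.33 and -0.19 with offsets, with and without the block (-0.33 and -0.19). With offsets, Pnpla2 went from -0.41 to -0.27 and Lipe from -0.35 to -0.22, within the spread between replicates.

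The replicate numbers are labels, and no source used here says whether they pair the libraries. Deviations of same-numbered libraries had correlations of -0.01, -0.10 and 0.22. These deviations also hold the GC shift of the libraries that stood apart, so the correlations cannot decide whether the libraries are paired. With the replicate block, 1027 genes were past the threshold, 5 of the 10 genes were called, and the call of Pcyt1a was lost. The median log2 fold change of all genes was -0.003, and it was -0.004 with RLE size factors, -0.02 with library size alone and 0.02 with offsets. Mgll and Pdcd1 had at most 4 and 16 counts in a library, which is too few to measure a change at this depth.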
